A study of Mus musculus with 8 samples.

Results

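The expression of 38 autophagy genes was measured by RNA-seq in pools of 2-cell mouse embryos. The genes were taken from a list of autophagy initiation, conjugation, receptor and regulator genes by matching the symbol of each row of the count tables, and all 38 listed symbols were found among 37310 genes. Embryos were either Gadd45a/Gadd45b double knockout (DKO) or wild-type (WT), all in the C57BL/6N strain, with 4 pools per genotype. The 2 single knockout lines had been interbred, so the knockouts are not restricted to a cell type. GADD45 proteins are stress-induced adaptors with roles in cell cycle arrest, repair and removal of DNA methylation. The mothers were superovulated females of 3 to 4 weeks and of the same genotype as the embryos, mated naturally, and embryos were collected 20 h after the vaginal plug. Loss of the mother's gene products and loss of the embryo's own therefore cannot be told apart. Each pool held 23 to 35 embryos of 1 litter, with 23, 27, 28 and 35 embryos in DKO replicates 1 to 4 and 23, 30, 25 and 25 embryos in WT replicates 1 to 4. Values of single pools are given in that order.

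Autophagy wraps cytoplasm in a double membrane and delivers it to the lysosome for breakdown. The ULK kinase complex starts the process, a class III PI3-kinase complex marks the membrane with the lipid PI3P, ATG9 vesicles and ATG2 lipid transfer proteins let the membrane grow, and ubiquitin-like conjugation reactions fix ATG8 proteins to it, where cargo receptors bind. In mouse embryos autophagy is known to be switched on soon after fertilization, when the proteins stored by the oocyte are broken down, and embryos that lack Atg5 from both the egg and the sperm stop in early cleavage.

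The 8 libraries held 21329736 to 23919114 counts per library. Gadd45b was almost absent from every library labelled DKO, with 4, 14, 1 and 6 counts in DKO pools against 910, 946, 1395 and 808 counts in WT pools (log2 fold change −7.33 ± 0.42, SE, adjusted p = 5.63e-07 in edgeR). Gadd45a stood at 9.40 ± 1.69 CPM in DKO and 20.0 ± 2.95 CPM in WT (SD, n = 4 each), where CPM are counts relative to the TMM-scaled library total (edgeR's cpm). The sources used here do not say which part of Gadd45a was deleted, so its remaining reads are no check of the label. The stage was checked with 2-cell markers, of which 13 were tested and 0 called, with 9 log2 fold changes above 0 and 4 below. Zscan4d stood at 170.1 to 302 CPM in DKO pools and 164 to 277 CPM in WT pools, and Zfp352 at 316 to 495 CPM in DKO pools and 233 to 337 CPM in WT pools. Tdpoz4 stood at 10.1 to 22.5 CPM in DKO pools and 25.1 to 36.5 CPM in WT pools, with each DKO pool below each WT pool, as in 2.55% of all genes. Markers of cumulus and granulosa cells, which surround the egg, were at 0 in every library for Ptx3, Foxl2, Inhba and Amh, and 10 of the 14 were under 1 CPM on average. Their summed level was 100.4 to 147 CPM in DKO pools and 117 to 177 CPM in WT pools, most of it from Nr5a2 and Amhr2. Tnfaip6, at 5.53 to 10.9 CPM in DKO pools and 5.97 to 11.2 CPM in WT pools, was also detected in every pool. So was Cyp19a1, at 1.58 to 4.02 CPM in DKO pools and 1.30 to 2.44 CPM in WT pools. Of 8 sperm markers 7 were under 1 CPM on average, and the sum was 51.8 to 109 CPM in DKO pools and 57.7 to 66.4 CPM in WT pools, nearly all from Odf2. Among the libraries DKO replicate 1 was the odd one out: voom gave it a quality weight of 0.365, and it had a summed level of 25 oocyte-derived transcripts of 41804 CPM, against 19439 to 28412 CPM in the other 7 libraries. In pooled embryos, fewer cells that express a gene and less RNA per cell cannot be told apart.

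The comparison asked which autophagy transcripts differed between DKO and WT 2-cell embryos. None of the 36 members that passed the filter on low counts was called by edgeR's quasi-likelihood test at an adjusted p under 0.05, and DESeq2 and limma-voom called 0 as well. Over all 14970 genes tested edgeR called 4, a share of 0.0267% (0.00668% higher and 0.02% lower in DKO), DESeq2 called 0.267% of the genes to which it gave an adjusted p, and limma-voom 0.0334%. An unadjusted p under 0.05 was reached by 4 of the 36 members, or 11.1%, near the 10.2% of all genes. The 3 that were lower in DKO were the lipid kinase gene Pik3c3, the E1-like enzyme gene Atg7 and the protease gene Atg4b, where 4.44% of all genes were lower by the same measure. The 1 that was higher was Pik3r4, the regulatory partner of Pik3c3, where 5.79% of all genes were higher. In 0 members did the 4 DKO pools lie all above or all below the 4 WT pools, which 5.34% of all genes did (2.79% above and 2.55% below).

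Log2 fold changes of the members, DKO minus WT, ran from −0.79 for Pik3c3 to 0.94 for Wipi1. Of the 36, 26 or 72.2% were below 0 (27 with RLE size factors and 23 when scaled by library size alone), against 48.8% of all genes, and the median was −0.13, against 0.012 over all genes. For 29 of the 36 the 95% interval of the log2 fold change lay within −1 and 1, a change of less than 2-fold either way, as it did for 57.9% of all genes. Leaving out DKO replicate 1 gave a median of −0.13 and 28 members below 0. The number of members at an unadjusted p under 0.05 fell to 1 without DKO replicate 1, WT replicate 1 or WT replicate 2, and to 2 without DKO replicate 3 or WT replicate 4. The member genes share these 8 libraries, so their directions are not independent of each other.

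**Figure D1:**
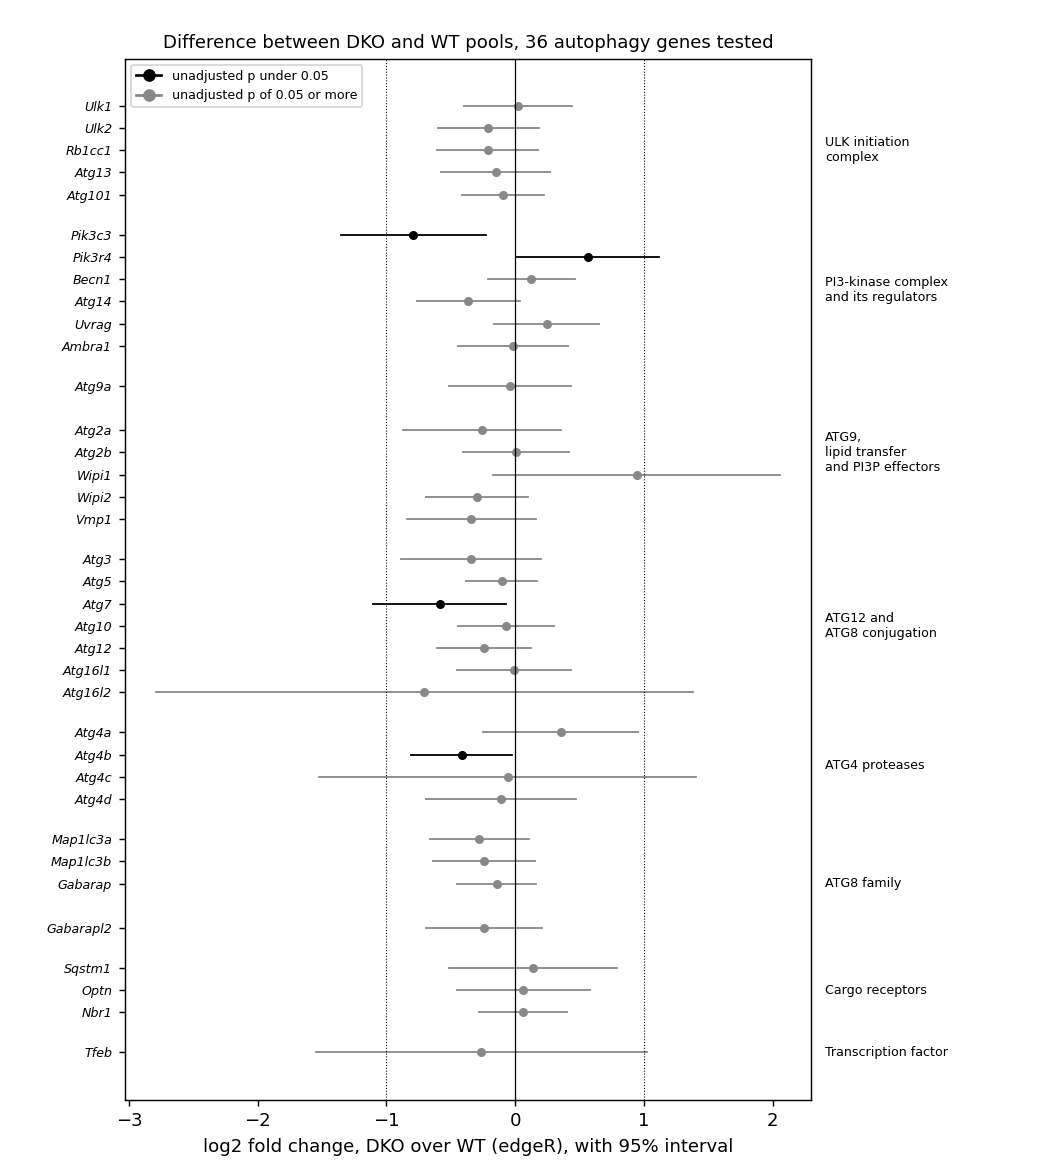
Log2 fold change of each of the 36 tested autophagy genes, DKO over WT (x axis), with its 95% interval from edgeR, grouped by role down the page. Most points lie within −0.4 and 0.4, all intervals outside the 4 black ones include 0, and the dotted lines mark −1 and 1; no gene passed after adjustment.

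The members not tested were Atg9b, a second transmembrane scramblase gene of the ATG9 kind, and Gabarapl1, an ATG8 gene. Atg9b had 3, 5, 1 and 0 counts in DKO pools and 22, 1, 1 and 0 counts in WT pools. Gabarapl1 had 0, 1, 0 and 5 counts in DKO pools and 0, 0, 7 and 21 counts in WT pools. Both were close to the floor in most pools of either genotype, since 3 counts were worth 0.13 to 0.138 CPM. Gabarapl2 and Gabarap, relatives of Gabarapl1, were among the highest members per kb of exon. Atg9a, the relative of Atg9b, stood at 2.90 CPM per kb of exon over all pools, at percentile 50.0 of the genes tested.

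Levels were compared between genes per kb of exon, since longer transcripts collect more reads. The autophagy genes spanned the range from nearly silent to abundant. Map1lc3b, which encodes the ATG8 protein LC3B, was the highest at 169 ± 36.0 CPM per kb in DKO and 199 ± 39.6 CPM per kb in WT (SD, n = 4 each). Map1lc3a stood at 145 ± 35.3 CPM per kb in DKO and 176 ± 23.8 CPM per kb in WT (SD, n = 4 each), and Gabarapl2 at 142 ± 31.2 CPM per kb in DKO and 168 ± 50.4 CPM per kb in WT (SD, n = 4 each). These 3 ATG8 genes were followed by Vmp1, Atg5 and Gabarap with averages of 128, 125 and 105 CPM per kb over the 8 pools, and the averages of neighbours from Map1lc3b down to Atg5 differed by less than the SD between pools of either genotype, while Atg5 and Gabarap differed by more. A step below came Atg101 at 74.2, Rb1cc1 at 56.1 and Atg14 at 47.9 CPM per kb over the 8 pools. At the other end were Atg9b at 0.0456, Atg16l2 at 0.0813, Gabarapl1 at 0.0943 and Tfeb at 0.168 CPM per kb. The median member tested stood at 4.06 CPM per kb, and the median of all genes tested with a known length at 2.90 CPM per kb. With the length of the principal transcript in place of the union of exons, Map1lc3b remained the highest at 546 CPM per kb, and Gabarapl2, Vmp1 and Map1lc3a came next. Wipi2 followed at 161 CPM per kb, above Gabarap at 144 and Atg5 at 125, while it stood at 30.0 CPM per kb of exon.

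**Figure D2:**
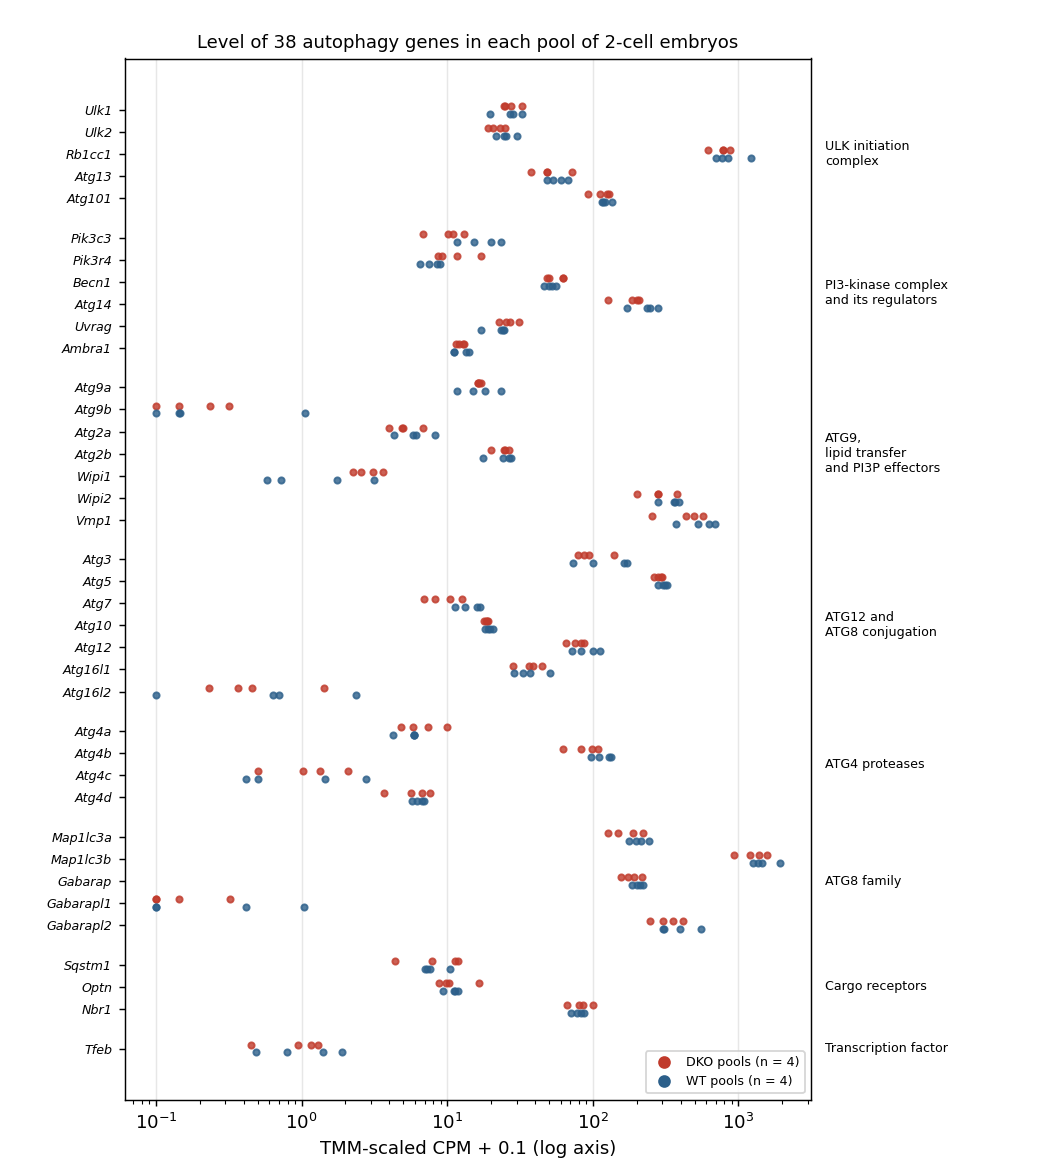
TMM-scaled CPM plus 0.1 (log axis) of the 38 autophagy genes, 1 point per pool, DKO in red above WT in blue, grouped by role. The points of both genotypes overlap for each of the 36 tested genes, and levels run from Gabarapl1 and Atg9b near 0 to Map1lc3b at 925 CPM and above. CPM are not divided by gene length, so genes are compared in the text per kb.

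The ULK complex starts autophagy by phosphorylating the machinery downstream when nutrients are scarce. Per kb its scaffold genes Atg101 and Rb1cc1, at 74.2 and 56.1 CPM per kb over the 8 pools, were far above its kinases Ulk1 and Ulk2, at 4.17 and 3.96 CPM per kb. With the length of the principal transcript the order of the scaffold genes turned, with Rb1cc1 at 108 and Atg101 at 93.3 CPM per kb. Rb1cc1, the large scaffold also called FIP200, had 621 to 878 CPM in DKO pools and 699.9 to 1219 CPM in WT pools. The genotypes overlapped, and its log2 fold change was −0.21 ± 0.18 (SE), −0.13 without DKO replicate 1 and −0.02 without WT replicate 4. Atg101 (ENSMUSG00000037204, chromosome 15), a small adaptor that binds ATG13, had the highest level of the complex per kb of exon. It had 92.9, 111, 129 and 126 CPM in DKO pools, against 135, 117, 122 and 116 CPM in WT pools. DKO replicates 1 and 2 were below all WT pools and the other DKO pools lay among them (log2 fold change −0.09 ± 0.15, SE, adjusted p = 0.826 in edgeR, and −0.01 without DKO replicate 1). Ulk1 (ENSMUSG00000029512, chromosome 5), the initiating kinase, had 27.1, 24.7, 24.6 and 32.5 CPM in DKO pools, against 28.1, 27.1, 19.5 and 32.7 CPM in WT pools. Its means were nearly equal (log2 fold change 0.02 ± 0.20, SE, 95% interval −0.40 to 0.44, adjusted p = 0.976 in edgeR), and the sign turned under 3 of the settings tried, to −0.11 without WT replicate 3 at the lowest. The related kinase Ulk2 had 19.1 to 25.0 CPM in DKO pools and 21.4 to 30.3 CPM in WT pools, and ATG13, the bridge between kinase and scaffold, had 37.8 to 72.0 CPM in DKO pools and 48.1 to 67.4 CPM in WT pools for its gene. In this complex 4 of 5 genes had a log2 fold change below 0, with a median of −0.15, and 0 reached an unadjusted p under 0.05.

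The PI3-kinase complex held the member with the smallest p in each direction, and they were its catalytic and its regulatory subunit. Pik3c3 (ENSMUSG00000033628, chromosome 18), the VPS34 kinase that makes PI3P, had 6.75, 13.0, 10.1 and 10.8 CPM in DKO pools, against 23.3, 15.2, 11.6 and 20.0 CPM in WT pools. Only DKO replicate 2 lay above the lowest WT pool, and the gene averaged 10.1 ± 2.57 CPM in DKO and 17.5 ± 5.16 CPM in WT (SD, n = 4 each). Its log2 fold change was −0.79 ± 0.26 (SE, 95% interval −1.35 to −0.23), with an unadjusted p of 0.00922 and an adjusted p of 0.469 in edgeR. Pik3r4 (ENSMUSG00000032571, chromosome 9), the VPS15 pseudokinase that anchors VPS34, had 16.9, 8.48, 11.5 and 9.17 CPM in DKO pools, against 6.39, 8.87, 7.37 and 8.45 CPM in WT pools. Here DKO replicate 1 was far above the other pools and DKO replicate 2 lay within the WT range. The mean was 11.5 ± 3.80 CPM in DKO and 7.77 ± 1.12 CPM in WT (SD, n = 4 each), and the log2 fold change was 0.57 ± 0.26 (SE, unadjusted p = 0.0460, adjusted p = 0.482 in edgeR), and without DKO replicate 1 it was 0.31, against −0.65 for Pik3c3.

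**Figure D3:**
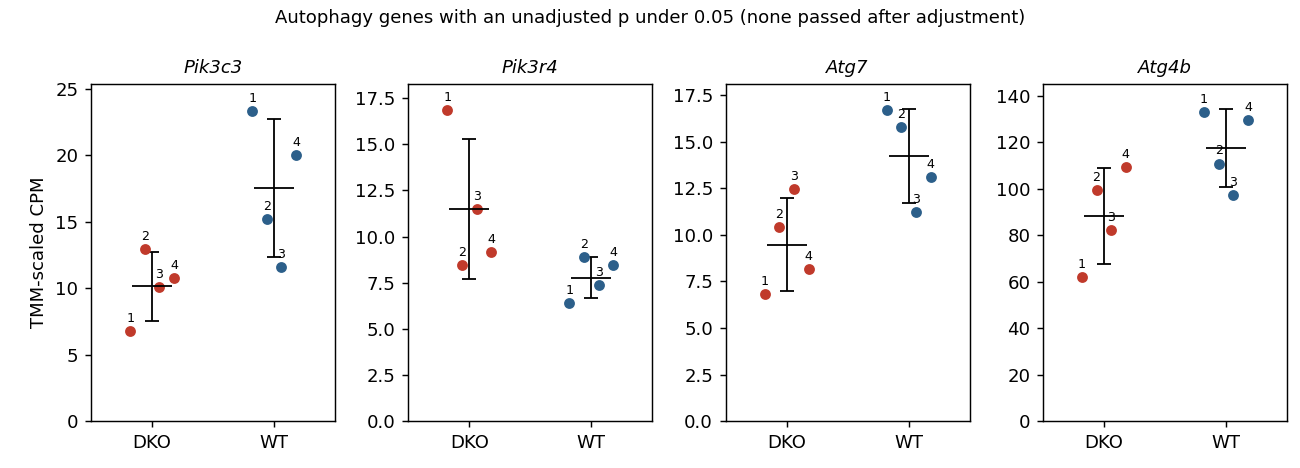
TMM-scaled CPM of the 4 autophagy genes with an unadjusted p under 0.05, 1 point per pool with its replicate number, DKO at the left and WT at the right of each panel, with the mean and SD (n = 4 each). In each panel the genotypes overlap, and DKO replicate 1 is the extreme DKO pool, lowest for Pik3c3, Atg7 and Atg4b and highest for Pik3r4.

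The other subunits did not follow one pattern. Becn1 (ENSMUSG00000035086, chromosome 11), the Beclin 1 scaffold of the complex, had 62.7, 62.5, 50.0 and 48.1 CPM in DKO pools, against 50.1, 52.5, 46.4 and 55.6 CPM in WT pools, with DKO replicates 1 and 2 above all WT pools and the others among them (log2 fold change 0.13 ± 0.16, SE, adjusted p = 0.776 in edgeR, 0.06 without DKO replicate 1 and 0.19 without DKO replicate 4). Over 3104 bases of its exons it overlaps Cntd1 on the opposite strand, which had 0.489 to 1.65 CPM in DKO pools and 0.134 to 0.950 CPM in WT pools. Atg14 (ENSMUSG00000037526, chromosome 14), which directs the complex to sites of autophagosome formation and had its highest level per kb, stood at 126, 202, 187 and 209 CPM in DKO pools, against 278, 237, 171 and 247 CPM in WT pools. DKO replicate 1 was the lowest and WT replicate 1 the highest, while DKO replicates 2 to 4 lay between WT replicate 3 and WT replicate 2 (log2 fold change −0.37 ± 0.19, SE, unadjusted p = 0.0705, adjusted p = 0.496 in edgeR, and −0.23 without DKO replicate 1). Uvrag (ENSMUSG00000035354, chromosome 7), which takes the place of ATG14 in an endosomal form of the complex, had 25.1, 22.5, 26.9 and 30.8 CPM in DKO pools, against 23.4, 24.2, 24.6 and 16.9 CPM in WT pools. DKO replicate 4 was the highest pool, WT replicate 4 was below all others, and the remaining pools were close together (log2 fold change 0.24 ± 0.19, SE, adjusted p = 0.631 in edgeR, and 0.13 without WT replicate 4). Ambra1, which links the ULK and Beclin 1 complexes, had 11.4 to 13.0 CPM in DKO pools and 11.1 to 14.0 CPM in WT pools. The 6 members had a median log2 fold change of 0.055, with 3 of them below 0, of which Ambra1 was at 0.0396 when scaled by library size alone.

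ATG9 vesicles, ATG2 bridges and the WIPI readers of PI3P build the growing membrane. In each of these families 1 paralogue held most of the level per kb. Wipi2 made up 97.6% ± 1.08 of the WIPI level in DKO and 98.9% ± 1.04 in WT (SD, n = 4 each), and it had 199.9 to 376 CPM in DKO pools and 278 to 392 CPM in WT pools. The rest was Wipi1 (ENSMUSG00000041895, chromosome 11), a PI3P reader with the largest positive log2 fold change of the members, at 3.53, 2.15, 2.48 and 2.98 CPM in DKO pools, against 0.475, 1.65, 3.04 and 0.626 CPM in WT pools. All DKO pools were above 2 CPM, while 2 WT pools were below 1 CPM and WT replicate 3 was at the level of the DKO pools. Its log2 fold change was 0.94 ± 0.52 (SE, 95% interval −0.17 to 2.06, adjusted p = 0.524 in edgeR). Leaving out 1 library at a time it ranged from 0.64 to 1.59, with 1.59 without WT replicate 3 and 0.80 without DKO replicate 1.

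Atg9a, the scramblase carried by ATG9 vesicles, held 99.1% ± 0.862 of the ATG9 level in DKO and 98.0% ± 3.39 in WT (SD, n = 4 each), and it was even across the DKO pools, with 16.1 to 17.0 CPM in DKO pools and 11.6 to 23.2 CPM in WT pools. Atg2b held 72.9% ± 7.01 of the ATG2 level in DKO and 69.0% ± 9.54 in WT, and both ATG2 genes had overlapping genotypes, with log2 fold changes of −0.26 ± 0.29 for Atg2a and 0.01 ± 0.19 for Atg2b (SE). That of Atg2a lay between −0.43 without DKO replicate 1 and −0.08 without WT replicate 3. Vmp1 (ENSMUSG00000018171, chromosome 11), an endoplasmic reticulum scramblase needed to form autophagosomes, had the highest level per kb of the group, with 253, 491, 433 and 574 CPM in DKO pools, against 630.0, 524, 374 and 689.6 CPM in WT pools. DKO replicate 1 was the lowest pool and WT replicate 4 the highest, with the remaining pools mixed (log2 fold change −0.34 ± 0.24, SE, adjusted p = 0.592 in edgeR, −0.16 without DKO replicate 1 and −0.22 without WT replicate 4). Of the 6 genes tested in this group 4 were below 0, with a median of −0.15, though Atg9a turned to 0.0217 when scaled by library size alone and Atg2b to −0.00391 with RLE size factors.

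The conjugation genes attach ATG12 to ATG5 and ATG8 proteins to membrane lipid. All 7 had a log2 fold change below 0, with a median of −0.24, though Atg16l1 was at 0.0450 when scaled by library size alone. Of the 7, 1 reached an unadjusted p under 0.05. That gene was Atg7 (ENSMUSG00000030314, chromosome 6), the E1-like enzyme that activates both ATG12 and the ATG8 proteins, with 6.84, 10.4, 12.5 and 8.14 CPM in DKO pools, against 16.7, 15.8, 11.2 and 13.1 CPM in WT pools. DKO replicates 1, 2 and 4 were below all WT pools, and DKO replicate 3 lay above WT replicate 3. It averaged 9.47 ± 2.49 CPM in DKO and 14.2 ± 2.52 CPM in WT (SD, n = 4 each), and the log2 fold change was −0.59 ± 0.24 (SE, 95% interval −1.10 to −0.07, unadjusted p = 0.0292, adjusted p = 0.471 in edgeR). Without DKO replicate 1 the log2 fold change was −0.47.

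Atg5 (ENSMUSG00000038160, chromosome 10), the acceptor of ATG12 and the gene whose loss stops early embryos, was the most abundant of the group per kb, at 298, 264, 293 and 279 CPM in DKO pools, against 321, 312, 304 and 282 CPM in WT pools. The pools were within a narrow band and the genotypes overlapped (log2 fold change −0.11 ± 0.13, SE, 95% interval −0.39 to 0.17, adjusted p = 0.770 in edgeR). The E2-like enzyme gene Atg3 had 79.2 to 140.2 CPM in DKO pools and 72.8 to 170.1 CPM in WT pools, the other E2-like enzyme gene Atg10 had 17.8 to 18.8 CPM in DKO pools and 18.1 to 20.6 CPM in WT pools, and Atg12, the ubiquitin-like protein itself, had 65.0 to 86.7 CPM in DKO pools and 71.4 to 112 CPM in WT pools. Their log2 fold changes were −0.35 ± 0.25 for Atg3, −0.07 ± 0.17 for Atg10 and −0.24 ± 0.17 for Atg12 (SE), and none had an unadjusted p under 0.05. Without WT replicate 4 they were −0.18 for Atg3 and −0.14 for Atg12, and without DKO replicate 2 that of Atg3 was −0.56. Atg16l1, which places the conjugate on the membrane, held 98.4% ± 1.64 of the ATG16L level in DKO and 97.5% ± 2.86 in WT (SD, n = 4 each). Its own log2 fold change of −0.01 ± 0.21 (SE) turned to 0.16 under limma-voom weights, and that of the near-silent Atg16l2, −0.71 ± 0.98 (SE), to 1.07, so the sign was not the same under every setting for these 2 of the 7.

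The ATG4 proteases cut new ATG8 proteins to expose the end that is joined to lipid, and later free them again. Atg4b (ENSMUSG00000026280, chromosome 1), the main protease for LC3B, had 61.9, 99.2, 82.3 and 109 CPM in DKO pools, against 133, 111, 97.2 and 129 CPM in WT pools. DKO replicates 1 and 3 were below all WT pools, while DKO replicates 2 and 4 lay among them. The gene averaged 88.1 ± 20.7 CPM in DKO and 118 ± 16.8 CPM in WT (SD, n = 4 each), and the log2 fold change was −0.42 ± 0.18 (SE, 95% interval −0.81 to −0.02, unadjusted p = 0.0392, adjusted p = 0.478 in edgeR), and −0.29 without DKO replicate 1. Atg4b held 73.3% ± 11.3 of the ATG4 level per kb in DKO and 81.2% ± 3.89 in WT (SD, n = 4 each), with DKO replicate 1 the lowest at 58.5%.

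Atg4a (ENSMUSG00000079418, chromosome X), a protease known for GABARAP-type proteins, had 9.79, 5.75, 7.30 and 4.72 CPM in DKO pools, against 5.83, 5.84, 5.81 and 4.11 CPM in WT pools. WT replicates 1 to 3 were nearly identical, WT replicate 4 was lower, and DKO replicate 1 was the highest pool (log2 fold change 0.35 ± 0.28, SE, adjusted p = 0.642 in edgeR). A copy of 2115 bases, Atg4a-ps, is 99.3% identical to it and had 0.442 to 1.38 CPM in DKO pools and 0.0864 to 1.01 CPM in WT pools, and with its counts added the log2 fold change was 0.38 (adjusted p = 0.596 in edgeR). Without DKO replicate 1 the log2 fold change of Atg4a alone was 0.13. Atg4c had 0.400 to 1.97 CPM in DKO pools and 0.313 to 2.67 CPM in WT pools, and Atg4d 3.56 to 7.51 CPM in DKO pools and 5.66 to 6.84 CPM in WT pools. Atg4d shares 1405 exon bases with Kri1 on the opposite strand, which had 4.65 to 11.5 CPM in DKO pools and 6.84 to 10.8 CPM in WT pools, so reads of the pair may not be told apart. In this group 3 of 4 genes were below 0, with a median of −0.086.

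ATG8 proteins coat the autophagosome and recruit both cargo and fusion factors, and they fall into the LC3 and GABARAP branches. Map1lc3b (ENSMUSG00000031812, chromosome 8) had 925, 1562, 1208 and 1376 CPM in DKO pools, against 1457, 1360.1, 1253 and 1928 CPM in WT pools. DKO replicate 1 was the lowest pool and WT replicate 4 the highest, with DKO replicate 2 above the other 3 WT pools. The gene averaged 1268 ± 271 CPM in DKO and 1499.5 ± 297 CPM in WT (SD, n = 4 each), and the log2 fold change was −0.24 ± 0.19 (SE, 95% interval −0.64 to 0.15, adjusted p = 0.625 in edgeR), and −0.12 without DKO replicate 1 and −0.10 without WT replicate 4. The other genes of the family had log2 fold changes of −0.28 ± 0.18 for Map1lc3a, −0.15 ± 0.15 for Gabarap and −0.24 ± 0.21 for Gabarapl2 (SE), and none of the 4 tested had an unadjusted p under 0.05. All 4 were below 0, with a median of −0.24. Without DKO replicate 1 they were −0.17 for Map1lc3a, −0.08 for Gabarap and −0.13 for Gabarapl2, and without WT replicate 4 that of Gabarapl2 was −0.03.

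The mean shares of Map1lc3b, Map1lc3a, Gabarapl2 and Gabarap differed between the genotypes by less than the SD between pools. In the GABARAP branch Gabarapl2 held 58.3% ± 3.12 of the level per kb in DKO and 59.4% ± 6.53 in WT, and Gabarap 41.7% ± 3.14 in DKO and 40.6% ± 6.57 in WT (SD, n = 4 each). Gabarapl1 held at most 0.134% in any pool. In the LC3 branch Map1lc3b held 53.8% ± 3.30 in DKO and 52.9% ± 4.15 in WT, close to Map1lc3a. With the length of the principal transcript the shares of Map1lc3b were 76.5% in DKO and 75.8% in WT, since its exons together are much longer than that transcript.

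**Figure D4:**
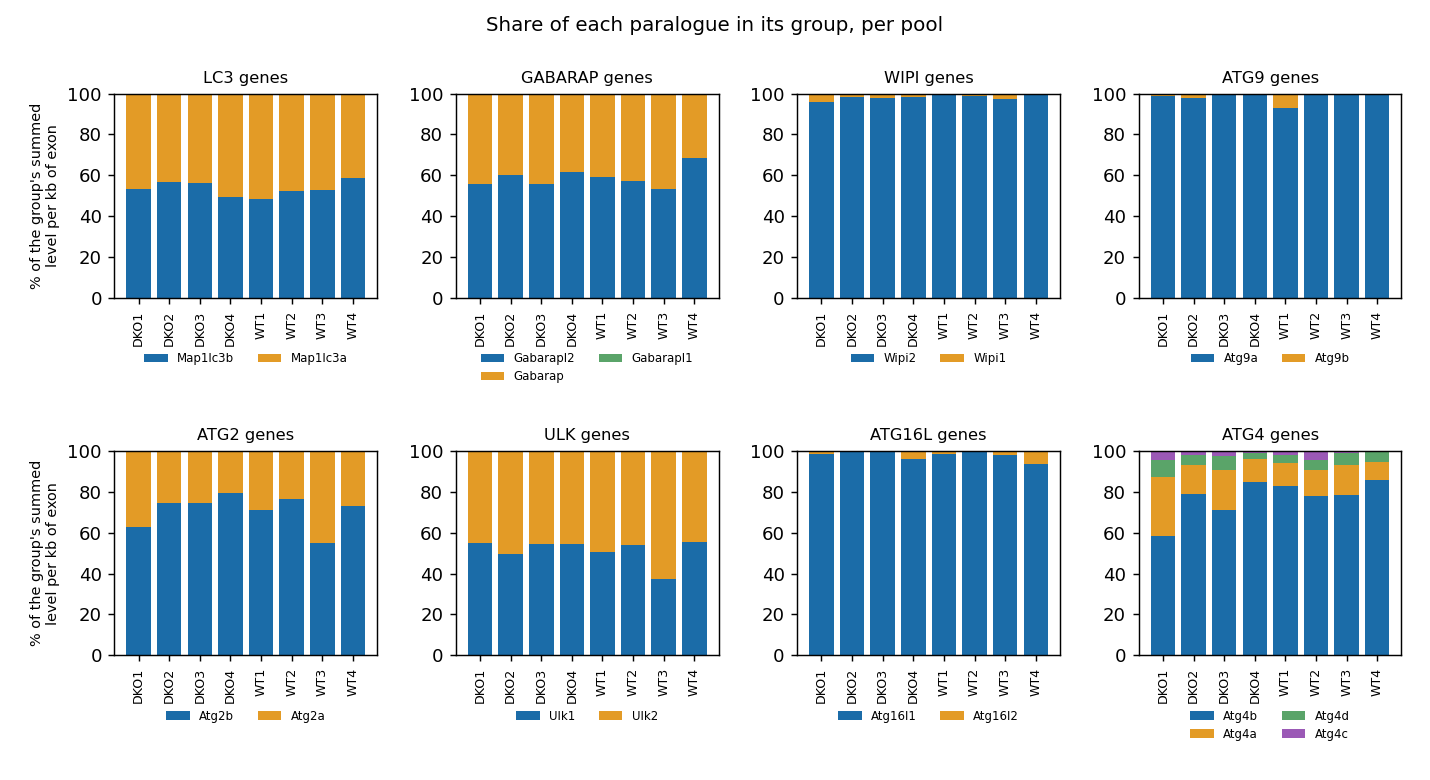
Share of each paralogue in the summed level per kb of exon of its group (y axis, %), 1 bar per pool, the 4 DKO pools left of the 4 WT pools. Map1lc3b and Gabarapl2 lead their branches narrowly in most pools, while Wipi2, Atg9a, Atg16l1 and Atg4b hold most of their groups in all 8 pools.

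Copies of Map1lc3b elsewhere in the genome collected reads too. A processed pseudogene on chromosome 9, Gm5612 (ENSMUSG00000074501), is 96.5% identical to the Map1lc3b coding sequence over 375 bases, and it collected more counts than Map1lc3b itself in every pool. The first 180 coding bases of Map1lc3b and the matching stretch of Gm5612, from the reference transcripts of GENCODE mouse release 21, are shown because they let the 2 be told apart. Capitals mark the 6 positions where they differ.
Map1lc3b: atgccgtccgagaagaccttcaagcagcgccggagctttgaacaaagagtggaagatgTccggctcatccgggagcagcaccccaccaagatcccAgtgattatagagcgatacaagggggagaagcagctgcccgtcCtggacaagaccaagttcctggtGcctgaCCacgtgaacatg
Gm5612: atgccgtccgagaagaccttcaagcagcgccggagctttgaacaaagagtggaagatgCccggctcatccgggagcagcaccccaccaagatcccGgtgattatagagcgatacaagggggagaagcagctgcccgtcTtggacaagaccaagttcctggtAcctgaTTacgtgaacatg
Over the whole stretch of 375 bases there were 13 such differences, and 0 of the 291 possible reads of 85 bases from Gm5612 were identical to Map1lc3b. Of the other copies, 71.1% of such reads from Gm6055 and 17.0% of those from Gm6054 were identical to it. The sources used here do not say how reads that match several places were counted. Gabarapl2 also has processed pseudogenes, Gm3724, Gm6051 and Gm5829, at 99.4%, 98.0% and 96.6% identity over 349, 352 and 351 bases. They were not among the genes counted, and whether reads from them fell to Gabarapl2 was not tested.

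Gm5612 had 1962, 3114, 2417 and 3123 CPM in DKO pools, against 2721, 2893, 2621 and 4075 CPM in WT pools. It was 1.87 to 2.27 times as high in counts as Map1lc3b, and it was lowest in the same DKO replicate 1 and highest in the same WT replicate 4. Its log2 fold change was −0.21 ± 0.19 (SE, adjusted p = 0.678 in edgeR), close to that of Map1lc3b. Gm6054 had 43.2 to 85.8 CPM in DKO pools and 78.7 to 117 CPM in WT pools, with a log2 fold change of −0.53 ± 0.21 (SE, adjusted p = 0.469 in edgeR). Map1lc3b made up 29.9% to 33.9% of the summed CPM of the gene and its 4 copies in a pool. With the counts of all 5 added together the log2 fold change was −0.23 (adjusted p = 0.648 in edgeR). Whether the counts of Gm5612 come from the pseudogene or from the gene was not tested.

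Cargo receptors tie ubiquitinated or damaged material to ATG8 proteins. Nbr1 (ENSMUSG00000017119, chromosome 11), a receptor for ubiquitinated cargo, was the most abundant per kb of the 3, at 101, 66.7, 84.9 and 79.7 CPM in DKO pools, against 70.4, 77.1, 87.2 and 83.3 CPM in WT pools. The highest and the lowest pool were both DKO, and the WT pools lay between (log2 fold change 0.06 ± 0.16, SE, adjusted p = 0.898 in edgeR). Sqstm1 (ENSMUSG00000015837, chromosome 11), which encodes p62, had 11.8, 4.26, 11.2 and 7.79 CPM in DKO pools, against 6.91, 10.3, 7.51 and 7.11 CPM in WT pools. DKO pools again spread further than WT pools (log2 fold change 0.14 ± 0.31, SE, 95% interval −0.51 to 0.79, adjusted p = 0.878 in edgeR), and a stretch of 580 exon bases overlaps Mrnip on the opposite strand, which had 12.1 to 24.8 CPM in DKO pools and 18.4 to 21.5 CPM in WT pools. At 2.49 CPM per kb Sqstm1 was below the median of all genes tested, at percentile 46.9. Optn, the optineurin gene, had 8.68 to 16.5 CPM in DKO pools and 9.30 to 11.8 CPM in WT pools, with DKO replicate 1 as its highest pool. All 3 receptors had log2 fold changes above 0, with a median of 0.0625, but without DKO replicate 1 Sqstm1 was at −0.04, Optn at −0.19 and Nbr1 at −0.05.

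Tfeb (ENSMUSG00000023990, chromosome 17), the transcription factor known to activate autophagy and lysosome genes, was close to the limit of detection, at 0.849, 0.351, 1.06 and 1.20 CPM in DKO pools, against 0.389, 0.689, 1.30 and 1.79 CPM in WT pools. The lowest pool was DKO replicate 2, WT replicates 3 and 4 were above all DKO pools, and the others were mixed (log2 fold change −0.26 ± 0.60, SE, 95% interval −1.55 to 1.02, adjusted p = 0.885 in edgeR), and it was −0.01 without DKO replicate 2 and turned to 0.12 without WT replicate 4.

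The pools of each genotype were spread widely. The summed CPM of the 38 members was 3717, 5247, 4643 and 5323 in DKO pools and 5692, 5164, 4569.9 and 6737 in WT pools. DKO replicate 1 was the lowest and WT replicate 4 the highest, and the genotypes overlapped. Among the 34 members with a mean of at least 1 CPM, DKO replicate 1 was the lowest pool for 15 or 44.1%, where it was the lowest for 27.1% of all genes of that level, and the highest pool for 8 or 23.5%, against 27.9% of all genes. WT replicate 4 was the highest pool for 11 members and WT replicate 1 for 10, or 32.4% and 29.4%, against 18.4% and 12.3% of all genes. DKO replicates 2 and 3 were the highest pool for 0 of the 34, where they were the highest for only 7.20% and 7.32% of all genes.

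In DKO replicate 1 and WT replicate 4 the summed oocyte-derived transcripts stood opposite to the summed members. The 25 oocyte-derived transcripts summed to 25179 to 41804 CPM in DKO pools and 19439 to 25671 CPM in WT pools. Of the 25, 21 had a log2 fold change above 0 and 4 (16%) below, where 48.8% of all genes were below 0. The median of the 25 was 0.41, against 0.012 over all genes. In edgeR 10 of the 25, or 40%, were higher in DKO at an unadjusted p under 0.05 and 0 lower. Over all genes these shares were 5.79% and 4.44%. In 4 of the 25 all DKO pools were above all WT pools, as in 2.79% of all genes. DESeq2 called 1 of the 25, and edgeR and limma-voom called 0. DKO replicate 1, the lowest pool for 15 members, had the highest oocyte-derived sum, and WT replicate 4, the highest pool for 11 members, had the lowest. The part of stored RNA in the autophagy values was not tested.

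**Figure D5:**
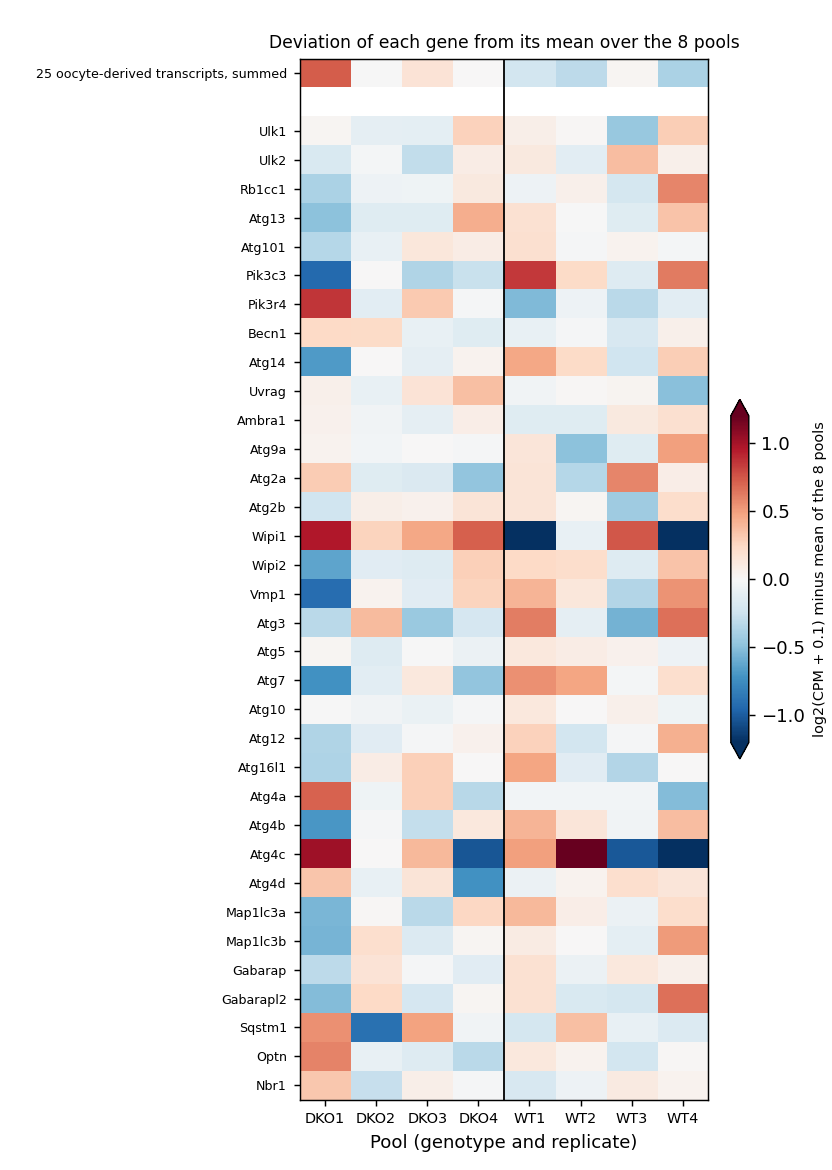
Deviation of log2(CPM + 0.1) from the mean of the 8 pools for the 34 autophagy genes with a mean of at least 1 CPM, with the summed 25 oocyte-derived transcripts in the top row (same scale, without the added 0.1). Columns are the 4 DKO pools, then the 4 WT pools; red is above and blue below the gene's own mean, and colours stop at −1.2 and 1.2. DKO replicate 1 holds the lowest value of 15 of the 34 genes and the highest of 8, and WT replicates 1 and 4, red for most genes, hold the highest of 10 and 11.

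Promoter sequences of RefSeq genes on GRCm38.p6 were matched by symbol to 32 of the 38 members, as windows of the 250 bases before a gene's start. They were searched on both strands for CACGTG, the core of the site that TFEB and its relatives bind and its own reverse complement, for GGGCGG (also read as CCGCCC), for TATAAA and for TGACGTCA. No values here measure the binding of any factor, and a match is a description of the letters only. CACGTG was found in 3 of the 32 members, or 9.38%, and in 6.86% of 27025 genes with such a window. The 3 were conjugation genes, and they are shown with the match in capitals because Atg7 had one of the smallest p values and Atg5 the highest level of that group. The windows were chr16:45158579-45158828 for Atg3, chr10:44268089-44268338 for Atg5 and chr6:114670846-114671095 for Atg7, all on the plus strand.
Atg3: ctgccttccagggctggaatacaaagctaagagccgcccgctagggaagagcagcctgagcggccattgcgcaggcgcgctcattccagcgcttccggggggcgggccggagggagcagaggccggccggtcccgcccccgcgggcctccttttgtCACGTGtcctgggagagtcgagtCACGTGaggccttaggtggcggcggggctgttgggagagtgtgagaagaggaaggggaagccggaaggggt
Atg5: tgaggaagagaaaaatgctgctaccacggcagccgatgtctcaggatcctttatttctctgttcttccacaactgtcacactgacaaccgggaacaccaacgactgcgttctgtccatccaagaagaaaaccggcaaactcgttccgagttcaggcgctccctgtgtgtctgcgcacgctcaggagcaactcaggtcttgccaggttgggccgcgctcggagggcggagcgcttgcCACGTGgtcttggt
Atg7: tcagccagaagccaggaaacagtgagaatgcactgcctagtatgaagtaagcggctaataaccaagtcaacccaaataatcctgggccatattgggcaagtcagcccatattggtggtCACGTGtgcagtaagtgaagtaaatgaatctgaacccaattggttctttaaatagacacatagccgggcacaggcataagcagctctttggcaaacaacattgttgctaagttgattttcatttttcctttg
The log2 fold changes of these genes were −0.35 for Atg3, −0.11 for Atg5 and −0.59 for Atg7.

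GGGCGG, the core of a GC box, was found in 20 of the 32 members, or 62.5%, and in 35.4% of all genes with a window, and the median number of CG pairs in a window was 15 for the member windows and 6 for all windows. All genes here are those with a window, whether or not they were detected in these embryos. The shares among the genes tested were not computed. TATAAA was found in 1 member, Atg4a, and in 14.3% of all genes, and TGACGTCA in 1 member, Atg16l2, and in 1.77% of all genes. The ATG8 genes Gabarapl1, nearly silent in these embryos, and Map1lc3b, the most abundant member, are shown with GGGCGG or CCGCCC in capitals. Their windows were chr6:129532942-129533191 for Gabarapl1 and chr8:121590188-121590437 for Map1lc3b, both on the plus strand.
Gabarapl1: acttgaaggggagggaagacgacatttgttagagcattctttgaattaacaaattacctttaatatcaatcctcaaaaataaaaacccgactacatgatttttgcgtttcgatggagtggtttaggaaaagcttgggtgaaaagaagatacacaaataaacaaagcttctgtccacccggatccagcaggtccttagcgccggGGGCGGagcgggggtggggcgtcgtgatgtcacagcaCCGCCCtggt
Map1lc3b: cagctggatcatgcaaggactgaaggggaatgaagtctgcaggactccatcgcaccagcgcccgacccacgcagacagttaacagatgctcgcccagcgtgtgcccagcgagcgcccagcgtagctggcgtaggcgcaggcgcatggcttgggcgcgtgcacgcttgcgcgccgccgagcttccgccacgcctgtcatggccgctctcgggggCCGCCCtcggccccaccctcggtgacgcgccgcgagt
Both windows hold the motif, 2 times in Gabarapl1 and 1 time in Map1lc3b, and the Map1lc3b window has 30 CG pairs against 12 in that of Gabarapl1.

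Genes around the core machinery were taken from 5 lists of other pathway genes, and edgeR, DESeq2 and limma-voom called 0 of them. Among 31 other autophagy genes 3 were higher and 3 lower in DKO at an unadjusted p under 0.05, or 19.4% against 10.2% of all genes, with a median log2 fold change of −0.08. Fundc1, a receptor for mitochondria, had 712, 464, 527 and 567 CPM in DKO pools, against 279.9, 371, 487 and 252 CPM in WT pools, with DKO replicate 2 below WT replicate 3 and the other DKO pools above all WT pools (log2 fold change 0.71 ± 0.21, SE, adjusted p = 0.469 in edgeR). Tecpr2, linked to transport from the endoplasmic reticulum in autophagy, had 0.849, 1.63, 2.21 and 1.25 CPM in DKO pools, against 3.19, 2.67, 2.32 and 4.25 CPM in WT pools. Each of the 4 DKO pools was below each WT pool, as in 2.55% of all genes (log2 fold change −1.06 ± 0.40, SE, adjusted p = 0.469 in edgeR), at levels of a few CPM.

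The 14 genes listed under autophagosome fusion with the lysosome had a median log2 fold change of 0.02. At an unadjusted p under 0.05, 2 were higher and 0 lower, against 5.79% of all genes higher and 4.44% lower. Both were tethering genes: Tgfbrap1, a subunit of the CORVET complex, had 24.4, 17.9, 17.0 and 18.3 CPM in DKO pools, against 11.1, 13.6, 13.2 and 13.6 CPM in WT pools, and Vps39, a subunit of the HOPS complex, had 6.71, 4.83, 5.35 and 8.28 CPM in DKO pools, against 3.97, 4.60, 4.83 and 2.32 CPM in WT pools. Their genotypes did not overlap, as in 2.79% of all genes in this direction, for Vps39 by a narrow margin, with log2 fold changes of 0.59 ± 0.20 for Tgfbrap1 and 0.68 ± 0.31 for Vps39 (SE, adjusted p = 0.469 and 0.480 in edgeR). Of 41 lysosome genes 2 were higher and 2 lower at an unadjusted p under 0.05, or 9.76%, near the 10.2% of all genes, with a median of −0.086. The peptidase gene Tpp1 had 17.3, 7.55, 11.1 and 6.94 CPM in DKO pools, against 7.64, 4.23, 6.17 and 5.90 CPM in WT pools, with overlapping genotypes (log2 fold change 0.84 ± 0.31, SE, adjusted p = 0.469 in edgeR, and 0.50 without DKO replicate 1).

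Nutrient sensing by mTORC1 and AMPK sets the activity of the ULK complex. Of its 33 genes 2 were higher and 3 lower at an unadjusted p under 0.05, or 15.2% against 10.2% of all genes, with a median of 0.02. Prkaa1, a catalytic subunit of AMPK, had 24.6, 78.0, 57.0 and 48.0 CPM in DKO pools, against 70.9, 77.3, 66.4 and 116 CPM in WT pools, where DKO replicates 1, 3 and 4 were below all WT pools and DKO replicate 2 lay among them (log2 fold change −0.67 ± 0.28, SE, adjusted p = 0.471 in edgeR, and −0.44 without DKO replicate 1). Stk11, the LKB1 kinase that activates AMPK, had 48.3, 45.0, 34.4 and 34.1 CPM in DKO pools, against 24.3, 30.1, 34.0 and 31.0 CPM in WT pools, with each of the 4 DKO pools above each WT pool, as in 2.79% of all genes, though DKO replicate 4 and WT replicate 3 were almost equal (log2 fold change 0.44 ± 0.18, SE, adjusted p = 0.471 in edgeR).

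The relatives of TFEB and the FOXO and FOXK factors, which act on autophagy genes, had 7 of 8 genes tested. Of these 1 was higher and 0 lower at an unadjusted p under 0.05, or 14.3% against 10.2% of all genes, with a median of 0.40, against 0.012 over all genes. Foxo3 had 71.6, 43.2, 46.9 and 36.4 CPM in DKO pools, against 27.5, 36.8, 33.0 and 30.1 CPM in WT pools, with DKO replicate 4 just below WT replicate 2 (log2 fold change 0.64 ± 0.21, SE, adjusted p = 0.469 in edgeR, and 0.40 without DKO replicate 1). Foxk2 had 83.4, 46.8, 42.8 and 48.4 CPM in DKO pools, against 39.4, 43.2, 42.1 and 40.2 CPM in WT pools, with DKO replicate 1 far above the other pools (log2 fold change 0.42 ± 0.20, SE, adjusted p = 0.489 in edgeR, and 0.15 without DKO replicate 1). The summed level of the 8 genes was 167 to 321 CPM in DKO pools and 146 to 166 CPM in WT pools, and the highest sum was that of DKO replicate 1.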

How the data were processed

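The authors deposited whole-number counts per Ensembl gene without any normalization, 1 table for each library. Per the labels' protocols, cDNA of each pool was made with a SMART-Seq kit, and single reads of 85 cycles were sequenced. Per the submitters' processing notes, tools included STAR 2.5.2b and featureCounts 1.5.1, with the builds NCBIM37 and mm9. The sources used here do not give the treatment of strand and of reads with several matches. PCR reads are not independent molecules, so counting floors cover counting error only.

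All 8 libraries were fitted in edgeR 4.0.16 (R 4.3.3) without covariates: filterByExpr, TMM scaling, robust quasi-likelihood test, Benjamini-Hochberg adjustment over 14970 genes, threshold 0.05. DESeq2 1.42.0 and limma-voom (limma 3.58.1) with quality weights were alternatives, and scripts were tested on simulated data. GENCODE mouse release 21 (GRCm38, newer than the build of the counts) gave symbols, lengths, overlaps and copies. Near copies were transcripts at least 95% identical over at least 200 bases. Every pair of libraries differed by more than sampling noise (chi-square over degrees of freedom of 22.2 or more).

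The members and lists were chosen with earlier results of these data known. Full statistics were given by rule to the 4 smallest p values in each direction, the highest level per kb in each role, and Map1lc3b, Sqstm1, Ulk1, Becn1, Atg5 and Atg7. Each other list gave its 2 smallest p values, of which a lysosome gene is not reported here; Map1lc3c and Vamp7 were not matched in the tables. The overlapping genes, copies and marker genes named beside them were chosen after their values were seen.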

Additional observations from a re-analysis of the deposited data

Results flagged for a closer look

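Uvrag in WT replicate 4, at 16.9 CPM, lay apart from the other 3 WT pools, which stood at 23.4 to 24.6 CPM. Atg4a in WT replicate 4, at 4.11 CPM, lay apart from the other 3 WT pools, which stood at 5.81 to 5.84 CPM. In each case the gap to the nearest pool took up most of the whole range of the 4 pools, beyond Dixon's 95% critical value. These were 2 of 68 groups of 4 pools examined, and chance alone sets about 1 in 20 groups apart by this measure.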

How the results depend on the processing

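Under 17 alternative settings edgeR, DESeq2 and limma-voom called 0 autophagy genes. Of 603 gene values under these settings 559 kept their sign and 44, in 12 genes, turned it, all of them without a call. The cause was not tested. Over all genes, 49 were called by DESeq2, 7 with no filter on low counts and 1 at a mean of at least 10 CPM, where fewer genes were tested, against 4 as reported. DESeq2 also called Gadd45a (log2 fold change −1.10, adjusted p = 0.000842).

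The log2 fold change of Atg2b was −0.00695 with DESeq2, −0.00391 with RLE size factors and −0.000432 with no filter. With limma-voom weights Ambra1 was 0.00273, Atg9a 0.140, Atg16l1 0.163, Atg16l2 1.07, Sqstm1 −0.0604 and Optn −0.110. Scaled by library size alone Ambra1 was 0.0396, Atg9a 0.0217 and Atg16l1 0.0450. At a mean of at least 10 CPM Ambra1 was 0.0220, Atg9a 0.000823 and Atg16l1 0.0262. With log2 embryos per pool as a covariate Ulk1 was −0.0247, Atg9a 0.0461, Atg2b −0.0451 and Atg16l1 0.00180. The replicate block gave 0.00286 for Atg9a, 0.00809 for Atg16l1 and 0.229 for Atg4c.

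Leaving out 1 library at a time, log2 fold changes ranged over −0.112 to 0.125 for Ulk1, −0.0690 to 0.0445 for Ambra1, −0.189 to 0.141 for Atg9a, −0.120 to 0.0784 for Atg2b, −0.125 to 0.173 for Atg16l1, −1.75 to 0.445 for Atg16l2, −0.469 to 0.720 for Atg4c, −0.267 to 0.0634 for Atg4d, −0.0436 to 0.366 for Sqstm1, −0.185 to 0.171 for Optn, −0.0514 to 0.153 for Nbr1 and −0.540 to 0.123 for Tfeb. The number of members at an unadjusted p under 0.05 then ranged over 1 to 6, the median over −0.19 to −0.09, and the number below 0 over 22 to 28.

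Replicate numbers name separate litters. Deviations of same-numbered pools correlated at 0.00235 to 0.0780. Pools with different numbers were not compared, so these values cannot show whether same-numbered pools share more than the number. A fit with the replicate block called 4 genes and 0 members, with a median of −0.15 and 3 members at an unadjusted p under 0.05. The share of Map1lc3b in the LC3 level over the 8 pools was 76.1% with the principal transcript, a setting added after seeing the data, as were the added counts of copies of Map1lc3b and Atg4a. With 4 pools per genotype, the 95% intervals give the range of changes compatible with the data, and the smallest detectable change was not computed. For genes near the floor of 3 counts neither sign nor size is firm.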

Other observations

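Pik3c3 and Pik3r4, the catalytic and regulatory subunits of the PI3-kinase complex, were chosen after their values were seen, and the ratio of their counts is given as a description with no test. Counts of Pik3c3 per count of Pik3r4 were 0.401, 1.53, 0.877 and 1.17 in DKO pools and 3.65, 1.72, 1.58 and 2.37 in WT pools. The DKO values all lay below the lowest WT value, though DKO replicate 2 at 1.53 was close to WT replicate 3 at 1.58. DKO replicate 1 and WT replicate 1 were the extremes. The pair joins the members with the smallest p in each direction, a choice that favours such a separation, and each gene alone overlapped. How often ratios of other gene pairs separate the genotypes was not computed. Gskip, a neighbour that shares 383 exon bases with Atg2b on the opposite strand, was also chosen after its values were seen. It had 62.8 to 112 CPM in DKO pools and 119 to 144 CPM in WT pools, with no overlap, as in 2.55% of all genes in this direction (log2 fold change −0.47 ± 0.18, SE, adjusted p = 0.469 in edgeR). Atg2b had 20.0, 24.9, 24.5 and 26.4 CPM in DKO pools, against 26.3, 23.9, 17.5 and 27.4 CPM in WT pools.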
